A study of Homo sapiens with 9 samples.

Results

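ES-2 cells overexpressing OTUB2 were compared directly with ES-2 cells overexpressing SNX29P2. ES-2 is an established human ovarian cancer line. The comparison used 6 of the 9 libraries of the study, 3 with OTUB2 and 3 with SNX29P2, placed in their groups by the labelled genotype and paired by the replicate number in their names. The other 3 libraries, of cells with an empty vector, gave the background level and added to the estimate of the spread. All cells grew in RPMI-1640 with serum and received no treatment, so the groups differed in the labels only by the overexpressed gene. Whether a line was 1 clone or a pool is not given in the sources used here. Nothing in the labels states that replicates were grown as separate cultures. The p-values below therefore refer to the spread among these libraries, part of which may be technical.

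OTUB2 encodes a cysteine protease of the OTU family, enzymes that take ubiquitin off other proteins and so can spare them from the proteasome. The annotation lists SNX29P2 as a transcribed pseudogene of SNX29, which belongs to the sorting nexins, proteins that bind membrane lipids and help route cargo between endosomes and other compartments. The title of the series ties OTUB2 to mitochondrial metabolism and to CA9, a membrane carbonic anhydrase of the cell surface that buffers pH and is a classic target of the hypoxia-inducible factors. The direct comparison asks where the RNA profiles of the 2 overexpression groups differ from each other, apart from what each shares against the vector.

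Reads in genes came to between 38504854 and 48551215 per library. Levels are in RPKM, the reads of a gene divided by its length in kilobases, per 1000000 reads of the library. VIM (975 to 1140 RPKM over the 9 libraries), KRT18 (101 to 147 RPKM) and KRT8 (25.7 to 36.5 RPKM) were expressed throughout, while the epithelial adhesion gene EPCAM reached at most 0.0192 RPKM. The leukocyte marker PTPRC stayed at or under 0.332 RPKM and the endothelial marker PECAM1 at or under 0.125 RPKM. Other genes of the same marker lists were expressed in all 9 libraries, the macrophage marker CD68 at 28.6 to 35.3 RPKM and the endothelial genes CDH5 at 17.6 to 23.6 RPKM and TIE1 at 35.3 to 43.7 RPKM. Of 8 leukocyte genes in the data 5 exceeded 0.5 RPKM in a library. Their summed level was 32.1 to 43.6 RPKM with OTUB2, 29.3 to 33.6 RPKM with SNX29P2 and 31.7 to 33.0 RPKM with the vector.

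In the fit of all 9 libraries the 2 overexpression groups differed past the threshold only at the overexpressed genes and 1 close relative. A gene was called where the adjusted p of limma (Benjamini-Hochberg) fell under 0.05, and 4 of 16533 genes tested were called (0.0242%). The 1 gene called higher with OTUB2 (0.00605%) was OTUB2 itself. The 3 entries called lower with OTUB2, thus higher with SNX29P2 (0.0181%), were SNX29P2, RP11-231C14.7 at the same locus, and SNX29P1, another pseudogene of SNX29. RP11-231C14.7 is named here because it was called, after its values were seen. Differences below are log2(RPKM + 0.1) with OTUB2 minus the same with SNX29P2, with 95% intervals from the same fit. This scale understates the change of genes with low levels.

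OTUB2 lies on chromosome 14 at chr14:94026329-94048930 (GRCh38, plus strand). Its level was 37.6, 42.6 and 38.4 RPKM in the OTUB2 libraries and 1.05, 1.58 and 1.08 RPKM in the SNX29P2 libraries. In the vector libraries it was 1.31, 1.16 and 1.04 RPKM. Every OTUB2 library thus lay far above every other library, and the SNX29P2 libraries lay at the vector level. The log2 difference was 4.91 (4.61 to 5.21), with a limma adjusted p of 1.501e-05. In reads, 22097 against 690 gave a ratio of 32.5 after scaling to depth (95% interval 30.2 to 35.1, counting error only). Reads of a construct and of the chromosomal gene cannot be told apart in this table. The end of OTUB2 overlaps DDX24, a DEAD-box RNA helicase gene on the minus strand, whose level was 26.0, 25.4 and 24.9 RPKM with OTUB2 and 25.4, 25.6 and 25.2 RPKM with SNX29P2. DDX24, looked up after the overlap was seen, differed by 0.003 (-0.12 to 0.12).

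SNX29P2 lies on chromosome 16 at chr16:29350746-29370272 (GRCh38, plus strand). Its level was 41.0, 55.1 and 47.6 RPKM in the SNX29P2 libraries. In the OTUB2 libraries it was 0.0223, 0.0195 and 0 RPKM, and in the vector libraries 0.0665, 0.0246 and 0 RPKM. The gene was therefore close to absent from the RNA of these cells without its construct. The log2 difference was -8.71 (-9.22 to -8.21), with a limma adjusted p of 1.501e-05. The OTUB2 libraries held 4 reads in all against 13378, a ratio of 3290 for SNX29P2 over OTUB2. Its 95% interval of 1290 to 12100 covers counting error only and takes each read as independent. Every SNX29P2 count was even, and whether both reads of a fragment were counted is not given in the sources used here. If they were, the interval is too narrow. RP11-231C14.7 spans SNX29P2 and carries the same name in GENCODE release 29. It held the same 13378 reads in the SNX29P2 libraries, so the 2 entries are 1 locus counted in both.

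SNX29P1 lies elsewhere on the same chromosome, at chr16:21376648-21386064 (GRCh38, plus strand). Its level was 22.3, 32.0 and 25.6 RPKM in the SNX29P2 libraries and 0.374, 0.368 and 0.0995 RPKM in the OTUB2 libraries. The groups did not overlap, and the vector libraries, at 0.155 to 0.372 RPKM, lay with the OTUB2 libraries. The log2 difference was -6.22 (-7.07 to -5.38), with a limma adjusted p of 0.001881. This call was lost when both libraries numbered 1, or both numbered 3, were left out together with the vector library of that number (differences -6.56 and -5.83, limma adjusted p = 0.0802 and 0.0675). SNX29P1 held 25.9, 27.7 and 25.6% as many reads as SNX29P2 in the 3 SNX29P2 libraries, a nearly fixed share. The counts of the pseudogene pair are uncertain as measures of separate genes, since how reads matching several places were counted is not given in the sources used here.

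The sequences of the SNX29 family show how close the copies are. Over the 4 exons of SNX29P1, 870 of 875 aligned bases were the same in SNX29P2 (99.4%) and 853 of 874 in SNX29 (97.6%). SNX29P2 and SNX29 shared 854 of 874 bases there (97.7%). Of the 508 bases of the last exon of SNX29P1, only 376 aligned with SNX29P2 and 376 with SNX29, and the rest are not in these shares. The second exon of SNX29P1, with its counterparts, is shown because it is the same in both pseudogenes over its whole length and separates them from SNX29 at 2 bases. The counterparts lie at chr16:29359265-29359335 in SNX29P2, chr16:21380145-21380215 in SNX29P1 and chr16:12046384-12046454 in SNX29, where the exon is coding (GRCh38, plus strand, GENCODE release 29). Capitals mark bases that differ from SNX29P2.
SNX29P2: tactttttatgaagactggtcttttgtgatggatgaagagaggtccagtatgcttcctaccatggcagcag
SNX29P1: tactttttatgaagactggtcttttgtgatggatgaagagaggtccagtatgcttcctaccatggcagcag
SNX29: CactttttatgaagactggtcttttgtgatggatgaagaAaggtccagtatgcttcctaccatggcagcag

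The first exon of SNX29P1 is shown with that of SNX29P2 because it holds 3 of the 5 bases at which the pseudogenes differ. It lies at chr16:21376648-21376829 in SNX29P1, and its counterpart at chr16:29355787-29355968 in SNX29P2 (GRCh38, plus strand). Capitals again mark bases that differ from SNX29P2, and the longest run without a difference in this exon is 93 bases.
SNX29P2: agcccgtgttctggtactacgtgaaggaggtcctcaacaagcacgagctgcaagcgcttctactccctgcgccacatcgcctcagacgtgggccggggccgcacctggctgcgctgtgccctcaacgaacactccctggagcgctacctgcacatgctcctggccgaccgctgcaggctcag
SNX29P1: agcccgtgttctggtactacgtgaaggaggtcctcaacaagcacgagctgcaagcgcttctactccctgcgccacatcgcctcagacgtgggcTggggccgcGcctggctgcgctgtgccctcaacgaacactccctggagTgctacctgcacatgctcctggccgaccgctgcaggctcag

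The protein-coding parent gene SNX29 did not differ past the threshold. Its level was 1.60, 1.46 and 1.48 RPKM with OTUB2 and 1.89, 1.55 and 1.58 RPKM with SNX29P2, and the vector libraries lay between 1.41 and 1.82 RPKM. The groups overlapped. The log2 difference was -0.13 (-0.37 to 0.11), with a limma adjusted p of 0.927. The interval leaves out a 1.5-fold difference in either direction. SNX29 lay lower with OTUB2 in each pair (-0.22, -0.08 and -0.09), as did 20.1% of all genes tested. In reads, 2235 against 2519 gave a ratio of 0.901 after scaling to depth (95% interval 0.851 to 0.954, counting error only). Whether reads of the SNX29P2 construct were counted in SNX29 cannot be told from these counts.

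**Figure D1:**
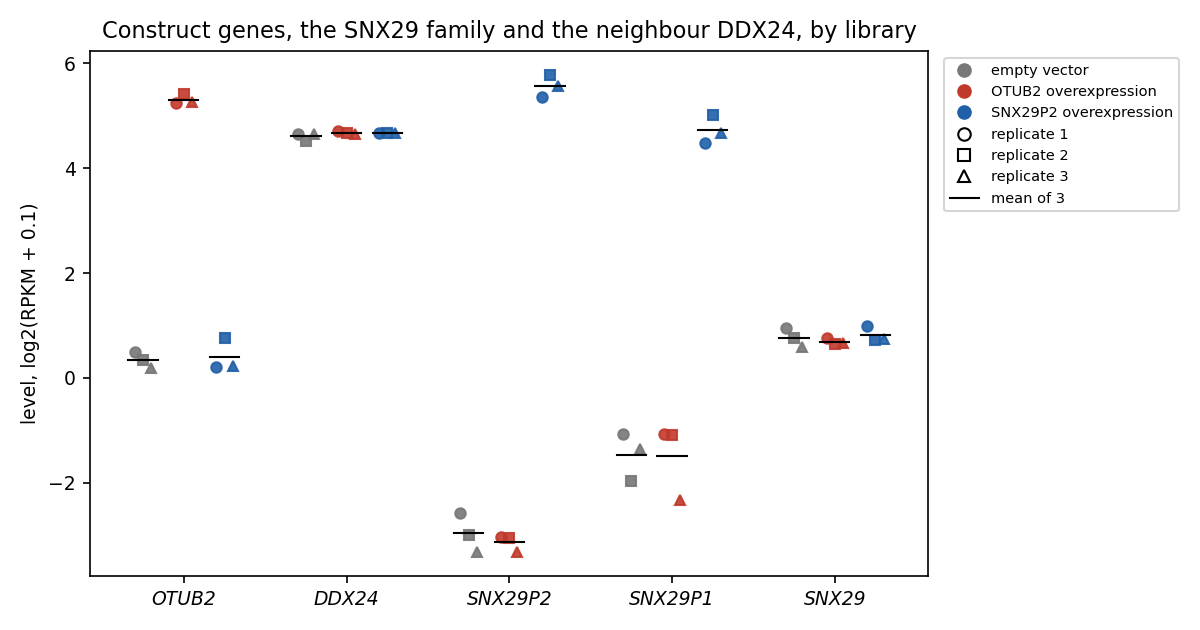
Level, as log2(RPKM + 0.1), of OTUB2, its neighbour DDX24, SNX29P2, SNX29P1 and SNX29 in each of the 9 libraries, with point shape for the replicate number and a bar for the mean of 3. OTUB2 stands apart only in the OTUB2 libraries, SNX29P2 and SNX29P1 only in the SNX29P2 libraries, while the 3 groups of DDX24 and SNX29 lie together.

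Outside these 4 entries limma called 0 of 16529 genes when the fit was repeated without them, and 774 had an unadjusted p under 0.05. With them, 778 of 16533 did (4.71%). In the fit of only the 6 compared libraries with the replicate block, 2231 did (13.5%), and the same 4 entries were called. The count-based alternative, limma voom on the reads recovered from the RPKM values, called the same 4 entries and gave 820 genes at an unadjusted p under 0.05. The smallest adjusted p of any other gene in the fit of all 9 libraries was 0.513. A miss of the threshold does not show that the groups are alike, so the intervals set the limit. For the median gene the 95% interval reached 0.233 on the log2 scale to each side, a factor of 1.18. The interval lay within 2-fold in both directions for 15210 genes (92.0%) and within 1.5-fold for 13136 (79.5%). Among 5255 genes that averaged 10 RPKM or more in the compared libraries, 5241 (99.7%) had intervals within 2-fold.

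Of the genes other than the 4 called entries, 164 had a fitted difference past 2-fold, 73 higher and 91 lower with OTUB2. Nearly all were thinly covered, 150 of them with under 100 reads over the 6 libraries and a median of 23 reads. By annotation 58 were miRNA genes and 20 snoRNA genes, which are short loci. The only protein-coding one was CTB-102L5.4, named after its values were seen, with means of 0.649 and 0.237 RPKM, 64 reads in all and a limma adjusted p of 0.919.

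**Figure D2:**
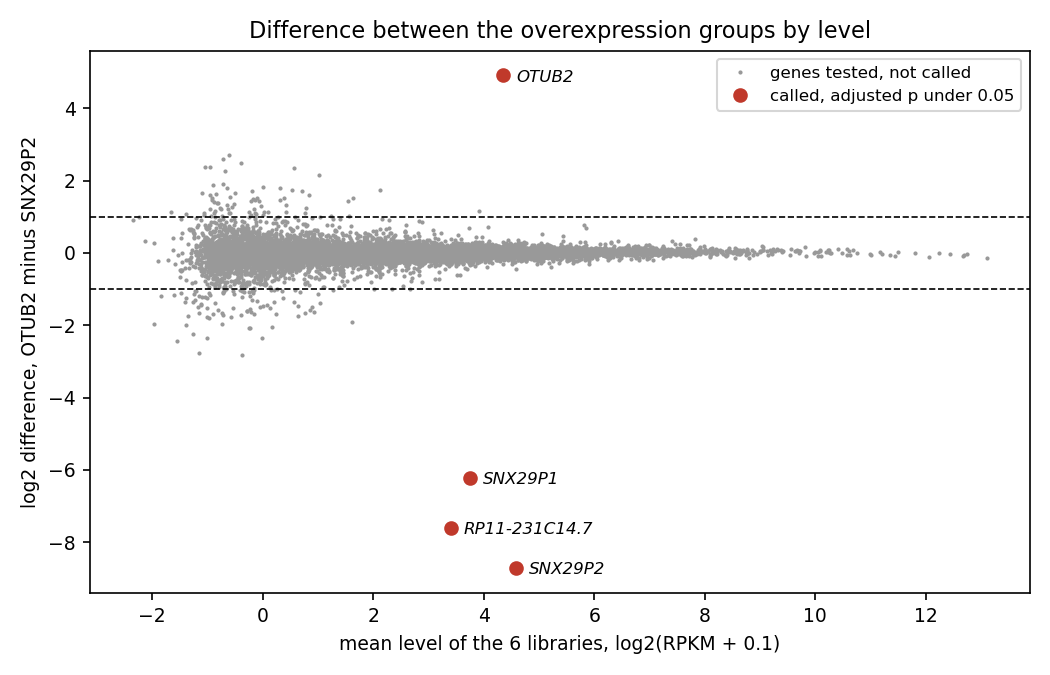
Fitted log2 difference (OTUB2 minus SNX29P2) of each gene tested against its mean level over the 6 compared libraries, as log2(RPKM + 0.1), with dashed lines at 2-fold. The 4 called entries, in red, lie far outside the cloud, and the cloud narrows as the level rises.

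CA9, the carbonic anhydrase in the title of the series, was low in both overexpression groups. Its level was 0.198, 0.148 and 0.0900 RPKM with OTUB2 and 0.104, 0.330 and 0.152 RPKM with SNX29P2, against 3.96, 6.75 and 2.29 RPKM with the vector. The overexpression groups overlapped each other, and every library of both lay below every vector library. The log2 difference between them was -0.22 (-0.99 to 0.55), with a limma adjusted p of 0.948, and the 3 pairs gave 0.54, -0.79 and -0.41. CA9 held only 32 reads in the OTUB2 libraries and 42 in the SNX29P2 libraries, and the interval reached nearly 2-fold on its lower side. In the same fit CA9 differed from the vector by -4.07 with OTUB2 and by -3.85 with SNX29P2. Both values use the same 3 vector libraries, so their likeness is no result of its own.

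Against the vector the same fit called 4 genes with OTUB2 (0.0242%) and 9 with SNX29P2 (0.0544%), and none of those outside the construct loci passed the threshold in the direct comparison. BGN, FSTL3, PLTP, COL6A2 and RP11-37C7.1 are named after their values were seen. BGN, which encodes the matrix proteoglycan biglycan, lay at 2.42, 2.13 and 2.23 RPKM with OTUB2, at 1.73, 1.98 and 1.94 RPKM with SNX29P2 and at 5.13 to 7.33 RPKM with the vector. The overexpression groups did not overlap, which held for 8.35% of all genes tested (4.3% higher and 4.05% lower with OTUB2). Their difference of 0.25 (-0.05 to 0.56) missed the threshold (limma adjusted p = 0.919). Against the shared vector libraries BGN differed by -1.41 with OTUB2 and by -1.67 with SNX29P2. GAA, the lysosomal acid alpha-glucosidase, lay at 12.1, 12.4 and 11.5 RPKM with OTUB2, at 10.6, 10.5 and 10.2 RPKM with SNX29P2 and at 15.2 to 19.2 RPKM with the vector. Its direct difference was 0.20 (0.04 to 0.36, limma adjusted p = 0.919), beside -0.54 and -0.74 against the vector.

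Of the other genes called against the vector with SNX29P2, FSTL3, a secreted antagonist of activin, differed directly by 0.02 (-0.14 to 0.18). PLTP, the phospholipid transfer protein, differed by 0.04 (-0.12 to 0.20), and the collagen VI gene COL6A2 by 0.13 (-0.04 to 0.29). The 3 genes lay at -0.64, -0.60 and -0.58 with OTUB2 and at -0.66, -0.65 and -0.70 with SNX29P2 against the shared vector libraries. RP11-37C7.1, a non-coding entry called against the vector with OTUB2, differed directly by -0.19 (-0.32 to -0.05, limma adjusted p = 0.919).

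In the matrix metalloproteinase gene MMP3, also named after its values were seen, the 2 overexpression groups shared a pattern over the replicate numbers that the vector did not. Its level was 83.7, 19.8 and 17.6 RPKM with OTUB2 and 63.8, 19.1 and 16.6 RPKM with SNX29P2, against 6.41, 6.83 and 7.39 RPKM with the vector. Replicate 1 was highest in both overexpression groups and lowest with the vector, and the groups overlapped. The direct difference was 0.18 (-0.88 to 1.23), and the pairs gave 0.39, 0.05 and 0.09. PTGS2, the inducible cyclooxygenase, lay at 1.05, 1.28 and 0.993 RPKM with OTUB2 and at 1.27, 1.67 and 1.38 RPKM with SNX29P2. It was lower with OTUB2 in each pair, but its difference of -0.35 (-0.66 to -0.04) missed the threshold (limma adjusted p = 0.919). The heat shock gene DNAJB4 lay at 6.33 to 9.43 RPKM with OTUB2 and 7.99 to 9.19 RPKM with SNX29P2, against 4.31 to 4.93 RPKM with the vector, and its direct difference was -0.19 (-0.51 to 0.12).

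**Figure D3:**
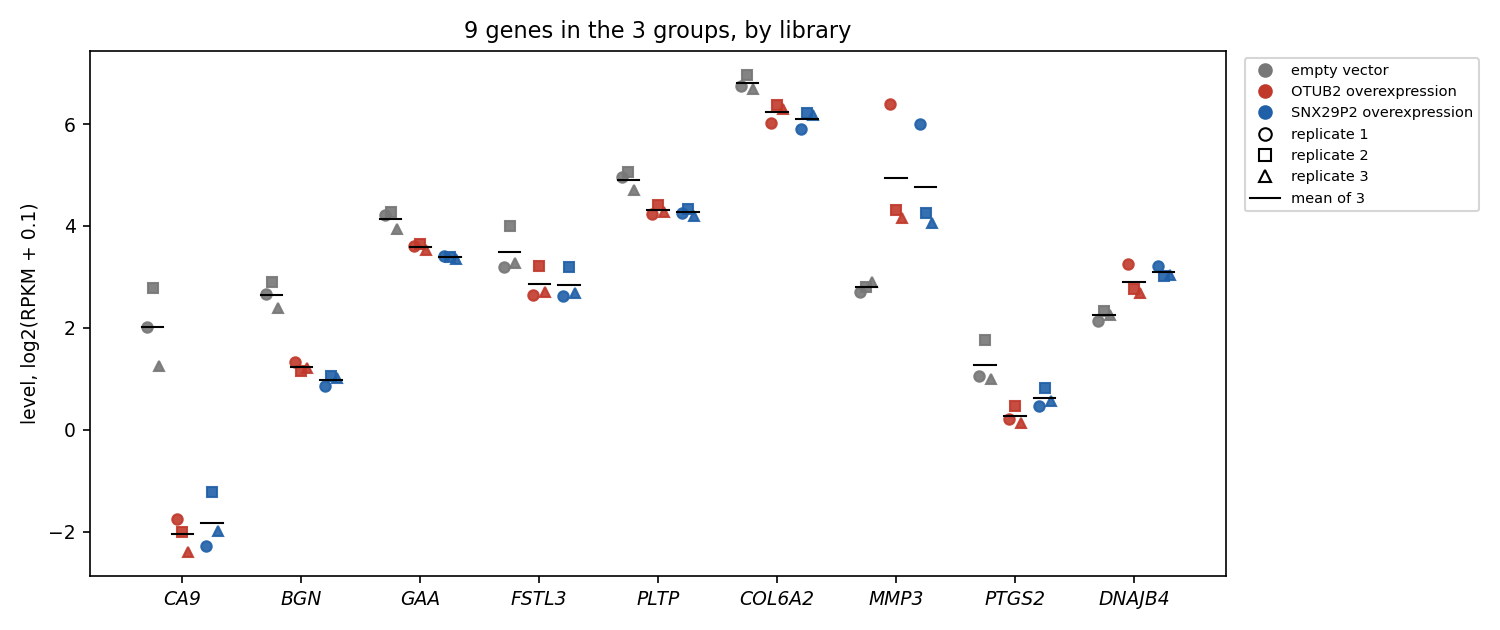
Level, as log2(RPKM + 0.1), of 9 genes in each of the 9 libraries, with point shape for the replicate number and a bar for the mean of 3. For CA9, BGN and GAA both overexpression groups lie below the vector and near each other, and for MMP3 replicate 1 is the highest library of both groups.

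None of the remaining genes passed the threshold, and those with the smallest p are given as values only. They were taken for a same sign in all 3 pairs and a small p in the paired fit. Like differences in the pairs and groups without overlap therefore follow in part from that choice. A same sign in all 3 pairs was held by 3013 genes higher (18.2%) and 3325 genes lower (20.1%) with OTUB2. IGFBP4, which encodes a binding protein that holds insulin-like growth factors away from their receptor, lay at 4.44, 6.50 and 4.74 RPKM with OTUB2 and at 3.27, 4.78 and 3.47 RPKM with SNX29P2. The groups overlapped as a whole, but each pair gave nearly the same difference, 0.43, 0.43 and 0.44. The fitted value was 0.43 (0.27 to 0.59, limma adjusted p = 0.727). With the vector IGFBP4 lay at 3.67 to 4.89 RPKM. The gelatinase gene MMP2 lay at 29.3, 25.6 and 27.7 RPKM with OTUB2 and at 23.5, 20.1 and 20.9 RPKM with SNX29P2, without overlap. Its difference was 0.36 (0.19 to 0.52, limma adjusted p = 0.919), and TIMP1, an inhibitor of such proteases, gave 0.15 (0.04 to 0.27). MMP2 lay at 24.5 to 27.8 RPKM with the vector.

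ENG, the TGF-beta co-receptor endoglin, lay at 139, 134 and 136 RPKM with OTUB2 and at 123, 111 and 117 RPKM with SNX29P2, again without overlap. Its difference of 0.22 (0.12 to 0.33) rested on 131587 reads in all, and its limma adjusted p was 0.919. ENG lay at 116 to 119 RPKM with the vector. The immunoproteasome subunit gene PSMB10 differed by 0.34 (0.20 to 0.48), SERPIND1, which encodes the thrombin inhibitor heparin cofactor II, by 0.51 (0.28 to 0.73), and the nucleotide hydrolase gene DNPH1 by 0.26 (0.13 to 0.39). On the lower side only 2 protein-coding genes were among those the naming rule took by p. PROS1, the anticoagulant protein S, lay at 2.35, 2.65 and 2.29 RPKM with OTUB2 and 2.87, 3.53 and 2.93 RPKM with SNX29P2, a difference of -0.34 (-0.52 to -0.15). PMAIP1, the BH3-only cell death gene also called NOXA, lay at 13.4 to 16.7 RPKM with OTUB2 and at 17.2 to 18.3 RPKM with SNX29P2, a difference of -0.24 (-0.38 to -0.10). For both genes the groups did not overlap, and limma gave an adjusted p of 0.919. The vector libraries lay at 2.88 to 3.29 RPKM for PROS1 and at 14.2 to 15.9 RPKM for PMAIP1.

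The other genes taken by p were not protein-coding, and their coverage ranged widely. The best covered were the pseudogene RPL6P27 with 1350 reads over the 6 libraries, the antisense gene TMEM44-AS1 with 1228 and RN7SL4P with 1029. TRBJ2-5, a T cell receptor joining segment, had the smallest p outside the called entries and held only 27 reads with OTUB2 and 53 with SNX29P2 (difference -0.98, -1.30 to -0.67, limma adjusted p = 0.513). The miRNA genes MIR6877, MIR8075, MIR10B, MIR3682 and MIR186 lay between -2.04 and -0.98 with 21 to 90 reads each over the 6 libraries, while the miRNA gene MIR4742 lay the other way at 0.94 with 52 reads. RN7SL4P, a signal recognition particle RNA pseudogene, lay at 15.3, 17.8 and 15.4 RPKM with OTUB2 and at 13.2, 8.83 and 8.55 RPKM with SNX29P2, so that SNX29P2 replicate 1 was the nearest to the other group. With the vector RN7SL4P lay at 16.1 to 19.9 RPKM. Its difference between the overexpression groups was 0.69 (0.31 to 1.06, limma adjusted p = 0.919). Leaving out SNX29P2 replicate 1 moved it to 0.93 (adjusted p = 0.039), and without that library 3 genes were called higher and 4 lower. TNFRSF6B, a decoy receptor gene named after its values were seen, differed by 0.46 (0.13 to 0.80) and had an adjusted p of 0.061 when only the 6 compared libraries were fitted with the replicate block, and 0.919 with all 9.

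**Figure D4:**
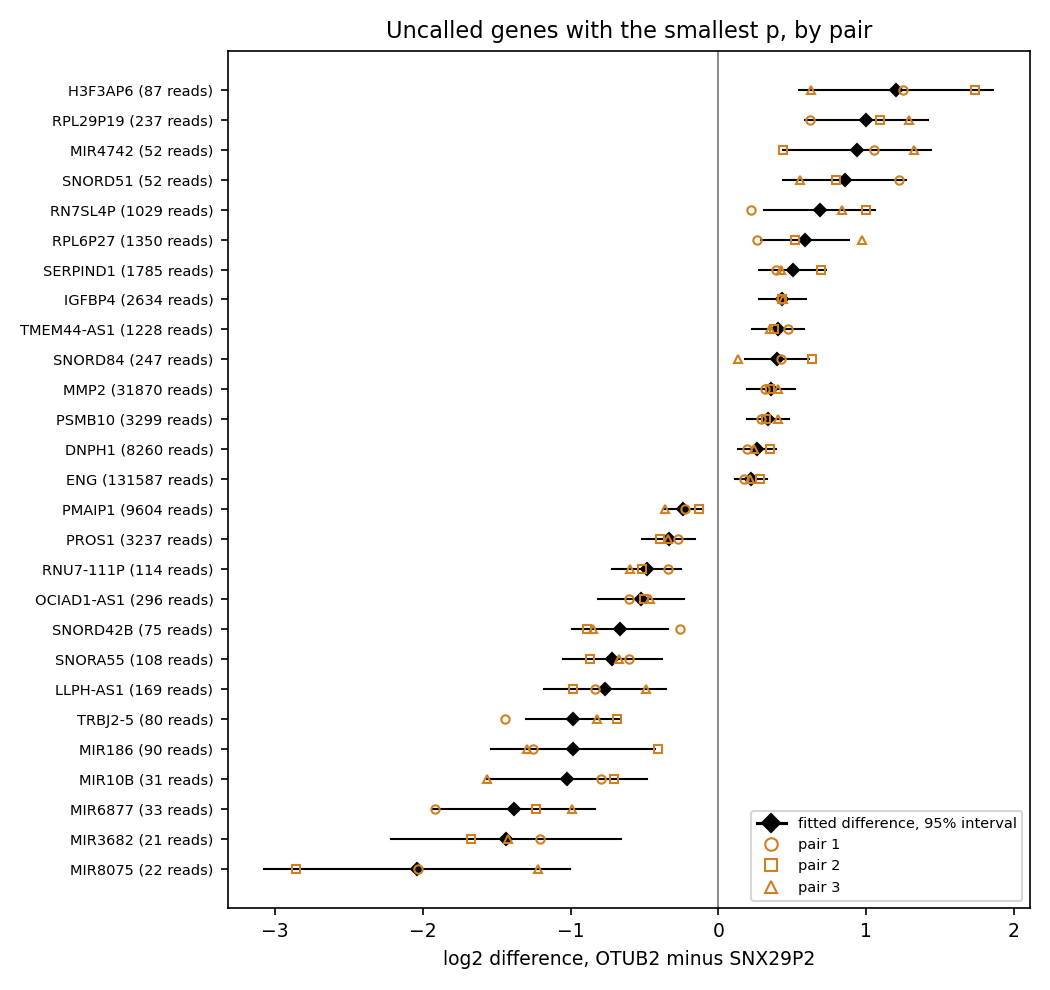
Fitted log2 difference (OTUB2 minus SNX29P2, diamonds) with its 95% interval, and the difference in each pair (open symbols), for the uncalled genes with the smallest p in each direction; reads over the 6 libraries stand beside each name. Intervals are narrow for well covered genes such as ENG and MMP2 and wide for the miRNA genes.

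The difference between the groups followed the base composition of the genes, so counts after a correction for it are given for each list below whose number of higher members moved by 3 or more. Across 16308 genes the log2 difference and the GC content of the transcript had a Spearman rho of 0.414, a description over genes of the same libraries. The 3 pairs gave 0.151, 0.356 and 0.364. With gene length the log2 difference had a Spearman rho of -0.15 over 16533 genes, and this trend was not corrected for. The quintile of genes with the lowest GC content had a median difference of -0.089 and the quintile with the highest GC content 0.058. By library, the gap between the highest and the lowest GC quintile, in deviations from the gene mean, was 0.126, -0.024 and 0.000 with OTUB2, 0.066, -0.197 and -0.211 with SNX29P2 and 0.017 to 0.131 with the vector. SNX29P2 replicates 2 and 3 thus lay furthest from the others, and within each pair the SNX29P2 library had the lower gap. After a correction for GC content within each library the same 4 entries were called and 627 genes (3.84%) had an unadjusted p under 0.05. The protein-coding genes taken by p as higher with OTUB2 lay nearer 0 after it. IGFBP4 then differed by 0.365, MMP2 by 0.315, ENG by 0.156, PSMB10 by 0.285, SERPIND1 by 0.495 and DNPH1 by 0.192. On the lower side, PROS1 and PMAIP1 had a transcript GC content of 40.5 and 37.2%, in the lowest quintile. Their corrected values are not given here. Of 15 listed epithelial markers 4 were tested, and all 4 lay higher with OTUB2. The summed level of the list was 286 to 294 RPKM with OTUB2, 254 to 278 RPKM with SNX29P2 and 262 to 297 RPKM with the vector. Among them KRT8 differed by 0.15 (-0.01 to 0.31) and KRT18 by 0.13 (-0.02 to 0.28), and after GC correction 3 of the 4 lay higher.

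Gene lists for the pathways of the study are described by counts and medians beside those of all genes tested, of which 8043 lay higher and 8490 lower, with a median of -0.004. In every list, 0 members were called by limma apart from OTUB2 itself among the OTU deubiquitinases. An unadjusted p under 0.05 was held by 4.71% of all genes tested, and by 3.84% after GC correction. The differences and intervals of named genes are those before GC correction. Of 14 tested genes of the OTU family, OTUB2 included, 5 lay higher and 9 lower, with a median of -0.033. Among the other members, OTUB1, the nearest relative of OTUB2, differed by 0.030 and TNFAIP3, the NF-kappa-B inhibitor A20, by 0.004. Neither of these was taken by the rule for named genes. Of the 12 tested genes whose products have been linked to OTUB2, 6 lay higher and 6 lower, with a median of -0.008. GLI2, a transcription factor of the hedgehog pathway, was the one with an unadjusted p under 0.05 and differed by 0.19 (0.02 to 0.36). After GC correction 0 of the 12 had an unadjusted p under 0.05. Of 31 sorting nexins 10 lay higher and 21 lower, with a median of -0.030, and after GC correction 15 and 16. SNX16 had the smallest p among them, at -0.44 (-0.88 to -0.00).

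The hypoxia and carbon metabolism lists lay close to 0. Of 23 targets of the hypoxia-inducible factors, 8 lay higher and 15 lower with OTUB2 than with SNX29P2, with a median of -0.025. The oxygen-sensing hydroxylase gene EGLN1 differed by -0.16 (-0.34 to 0.03) and the lipid droplet gene HILPDA by 0.12 (-0.07 to 0.30). Of 7 genes for carbonic anhydrases and pH transport, 3 lay higher and 4 lower, among them the bicarbonate carrier SLC4A7 at -0.32 (-0.68 to 0.04) and the lactate carrier SLC16A1 at -0.06 (-0.20 to 0.08). Of 17 glycolysis genes 10 lay higher and 7 lower (median 0.017). Their intervals were narrow for the enzymes at high levels, such as PFKP at 0.06 (-0.04 to 0.16) and HK1 at 0.06 (-0.05 to 0.17). Of 25 genes of the tricarboxylic acid cycle 13 lay higher and 12 lower (median 0.014).

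Genes of the respiratory chain leaned by origin. Of 38 nuclear genes of complex I, 31 lay higher and 7 lower with OTUB2, with a median of 0.072 and pair medians of 0.049, 0.068 and 0.105. For complexes III to V it was 29 of 35 higher (median 0.048), with pair medians of 0.007, 0.050 and 0.072. ATP5I, a subunit of the ATP synthase, had an unadjusted p under 0.05, at 10.9, 9.27 and 9.11 RPKM with OTUB2 and 8.21, 7.56 and 6.15 RPKM with SNX29P2. These libraries did not overlap, and the difference was 0.42 (0.11 to 0.73, limma adjusted p = 0.919). Of the 13 protein genes of the mitochondrial chromosome, 12 lay lower with OTUB2 and 1 higher, with a median of -0.066 and pair medians of -0.069, -0.107 and -0.023. MT-ND5, a complex I subunit, differed by -0.09 (-0.20 to 0.01). Mitochondrial genes took 4.45, 4.64 and 4.79% of the reads with OTUB2, 4.60, 4.96 and 4.79% with SNX29P2 and 4.97 to 5.23% with the vector. After GC correction complex I had 34 of 38 higher (median 0.069), complexes III to V 30 of 35 (0.041) and the mitochondrial chromosome 1 of 13 (-0.042). Each list median kept its sign and was smaller in size after this correction, while the trend with gene length was not corrected for. The cause of these leans was not tested. Each of these list medians was under 0.1 on the log2 scale. An unadjusted p under 0.05 was held by 0 of the 38, 1 of the 35 and 0 of the 13 genes. These counts were the same after GC correction, beside 4.71% of all genes tested before it.

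Of 50 genes of the cytosolic ribosome, 48 lay higher with OTUB2 and 2 lower, with a median of 0.066 and pair medians of 0.022, 0.054 and 0.110. Of these, 31 lay higher in all 3 pairs, beside the 18.2% of all genes tested. An unadjusted p under 0.05 was held by 0 of the 50, before and after GC correction. RPL27 had the smallest p among them, at 252, 232 and 253 RPKM with OTUB2 and 235, 223 and 226 RPKM with SNX29P2, a difference of 0.11 (-0.01 to 0.23). The list's median was -0.060 with OTUB2 and -0.119 with SNX29P2 against the shared vector libraries. Genes of 1 list share libraries and can move together, so these counts are descriptions of the 6 libraries. Of 35 splicing factor genes 28 lay lower (median -0.060), but after GC correction 20 did (median -0.013). That list had a median transcript GC content of 41.2%, next to the lowest quintile, which ended at 41.0%.

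Of 16 genes of fatty acid oxidation 12 lay higher with OTUB2 (median 0.086), 2 of them with an unadjusted p under 0.05. ECI1, the mitochondrial enoyl-CoA isomerase, lay at 3.99, 3.90 and 3.44 RPKM with OTUB2 and 3.01, 2.39 and 2.52 RPKM with SNX29P2, without overlap, a difference of 0.51 (0.06 to 0.95). With the vector ECI1 lay at 2.85 to 4.89 RPKM. ETFB, of the electron transfer flavoprotein, differed by 0.20 (0.01 to 0.40). Of 29 lysosome genes 22 lay higher (median 0.056), 4 with an unadjusted p under 0.05, among them GAA and the sterol transfer gene NPC2 at 0.19 (0.04 to 0.34). After GC correction 1 lysosome gene and 4 genes of fatty acid oxidation had an unadjusted p under 0.05. Of 23 cholesterol synthesis genes 11 lay higher and 12 lower with a median of -0.003, beside list medians of -0.238 with OTUB2 and -0.243 with SNX29P2 against the shared vector libraries.

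The lists of mitosis and DNA replication had medians near 0. In bulk RNA, fewer cells of a kind and less RNA per cell cannot be told apart. Of 30 genes of mitosis 15 lay higher and 15 lower, with a median of 0.003, but after GC correction 22 lay higher and 8 lower, with a median of 0.033. These values stand beside list medians of 0.291 with OTUB2 and 0.264 with SNX29P2 against the shared vector libraries. Of 32 DNA replication genes 24 lay higher (median 0.040), and after GC correction 27 did (median 0.035). An unadjusted p under 0.05 was reached by 3 of them before GC correction and by 1 after it. Before it the licensing factor gene CDT1 differed by 0.24 (0.05 to 0.42) and the helicase subunit gene MCM5 by 0.11 (0.01 to 0.22). Among all the lists of at least 5 tested genes, the 8 histone genes had the median furthest from 0, at 0.298, with pair medians of 0.320, 0.314 and 0.290 and 6 of 8 higher. Against the shared vector libraries the histone list had medians of 0.419 with OTUB2 and 0.006 with SNX29P2. HIST1H1C, a linker histone, lay at 5.80, 5.17 and 4.84 RPKM with OTUB2, at 4.62, 2.73 and 3.56 RPKM with SNX29P2 and at 3.15 to 4.07 RPKM with the vector. Its OTUB2 libraries lay above all others, and the difference of 0.55 (0.21 to 0.89) had a limma adjusted p of 0.919. Many of these histone genes were near 1 RPKM, and the intervals of the list's members ran from -1.30 to 1.67.

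Of 22 inflammatory targets of NF-kappa-B 14 lay higher (median 0.060), although PTGS2 and CXCL2, the members with the smallest p, lay lower at -0.35 and -0.35. Of 26 targets of YAP and TAZ 12 lay higher and 14 lower (median -0.004), among them CRIM1 at -0.14 (-0.24 to -0.04). Of 25 genes of TGF-beta, activin and BMP signalling 17 lay higher (median 0.024), and after GC correction 14 did (median 0.037). ID1, a direct BMP target, differed by 0.23 (0.06 to 0.40) and INHBA, the activin A subunit, by -0.15 (-0.29 to -0.00). Among 24 secreted factors 11 lay higher and 13 lower, and after GC correction 8 and 16. The 2 with the smallest p were fibroblast growth factor genes. FGF5 lay at 22.4, 24.9 and 24.4 RPKM with OTUB2 and 24.4, 28.8 and 28.9 RPKM with SNX29P2, a difference of -0.19 (-0.31 to -0.07), and FGF2 differed by -0.26 (-0.47 to -0.05). SLC7A11, the cystine carrier and a shared target of ATF4 and NRF2, differed by -0.30 (-0.57 to -0.03). Limma gave an adjusted p of 0.919 for each of these 8 genes. After GC correction an unadjusted p under 0.05 was held by 2 YAP and TAZ targets and 1 gene of TGF-beta, activin and BMP signalling. It was held by 0 NF-kappa-B targets and 0 secreted factors.

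Among other lists, genes of the mesenchymal matrix lay higher with OTUB2 in 20 of 26 cases (median 0.041), 2 of them with an unadjusted p under 0.05. LAMA4, a laminin chain, lay at 3.81, 3.76 and 3.44 RPKM with OTUB2 and 3.21, 2.76 and 2.75 RPKM with SNX29P2, without overlap, a difference of 0.33 (0.06 to 0.60). With the vector LAMA4 lay at 2.85 to 4.40 RPKM. The fibrillin gene FBN1 differed by 0.21 (0.02 to 0.41). Of 26 immediate early and MAPK feedback genes 13 lay higher and 13 lower, and KLF2, a transcription factor, was the 1 with an unadjusted p under 0.05, at 0.22 (0.04 to 0.40). Of 19 NRF2 targets 14 lay higher (median 0.061), among them the pentose phosphate enzyme gene TALDO1 at 0.13 (0.02 to 0.24). Of 26 genes of ATF4 and the unfolded protein response 11 lay higher and 15 lower, and after GC correction 7 and 19 (median -0.039). EDEM1, which acts in the disposal of misfolded glycoproteins, differed by -0.13 (-0.26 to -0.01). Of 16 long non-coding RNAs 8 lay higher and 8 lower, and NORAD lay at 56.5, 55.2 and 55.6 RPKM with OTUB2 and 62.8, 60.8 and 63.8 RPKM with SNX29P2, without overlap, a difference of -0.16 (-0.31 to -0.02). Limma gave an adjusted p of 0.919 for each of the genes named in these lists. After GC correction an unadjusted p under 0.05 was held by 2 genes of the mesenchymal matrix and 1 long non-coding RNA. It was held by 0 members of the immediate early, NRF2 and ATF4 lists.

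**Figure D5:**
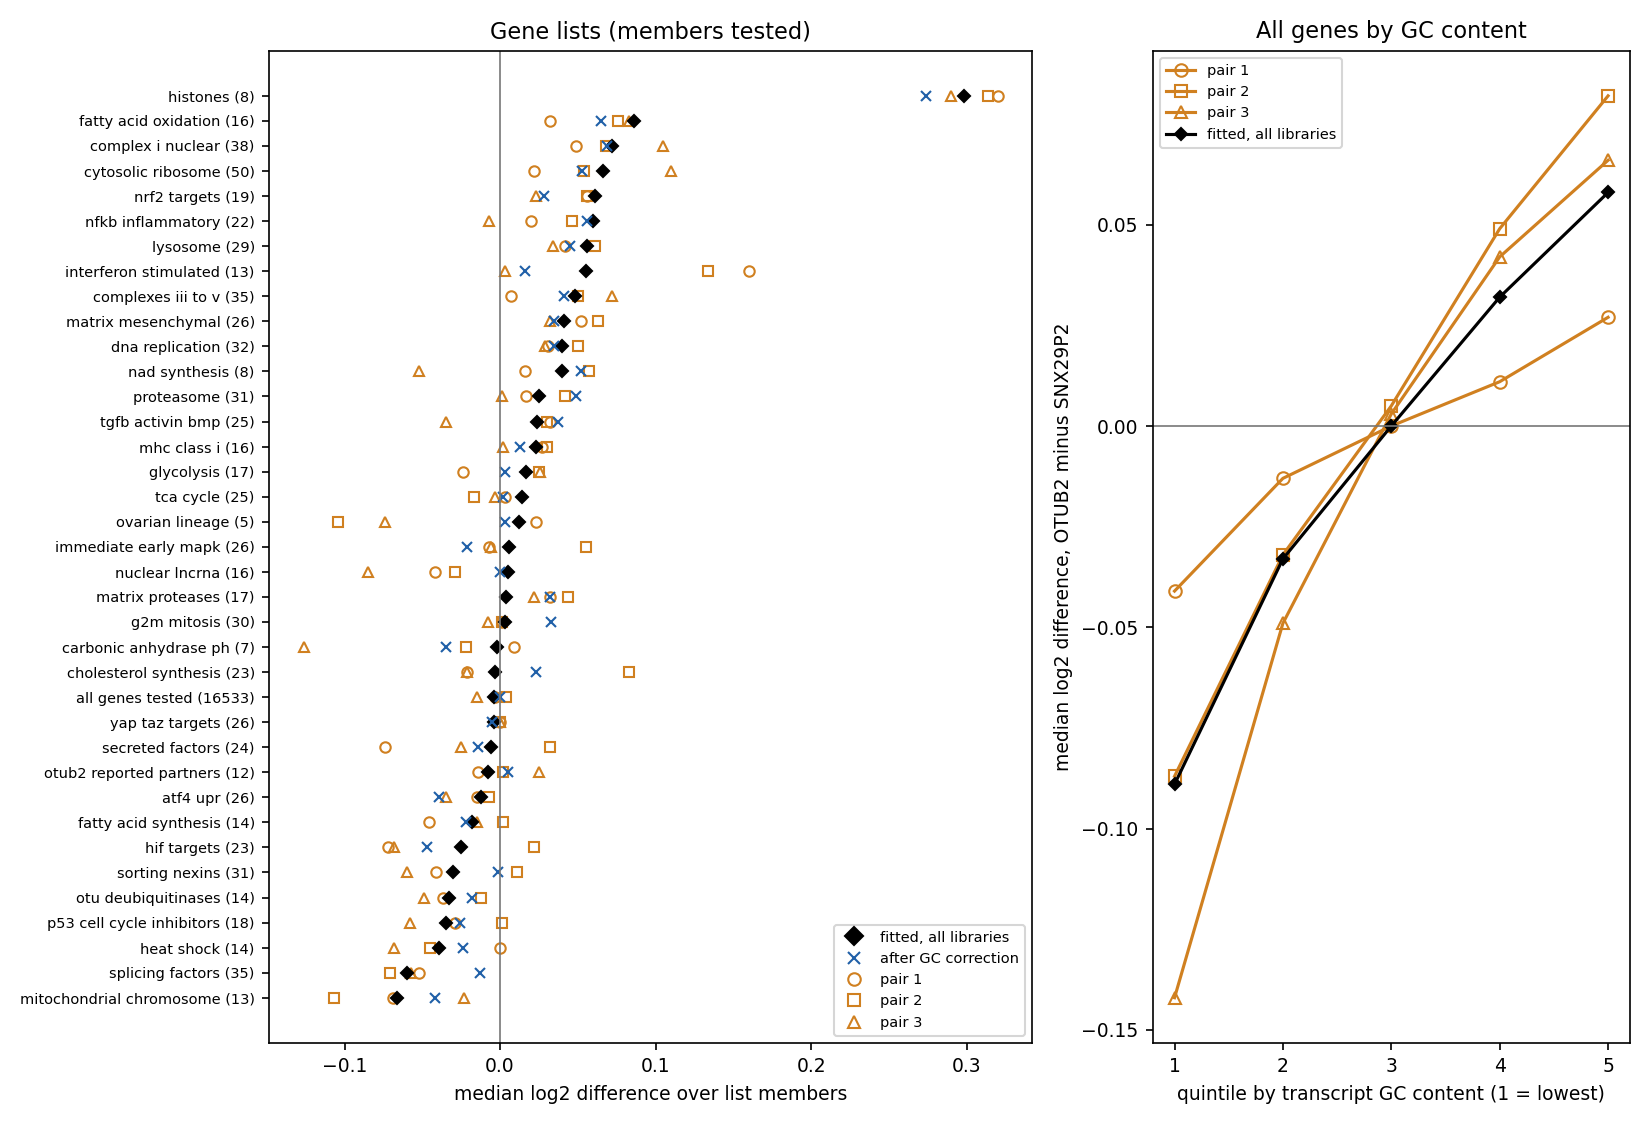
Left, median log2 difference (OTUB2 minus SNX29P2) of each gene list with at least 5 tested members, fitted (diamonds), after GC correction (crosses) and in each pair (open symbols). Right, the same median over all genes in quintiles of transcript GC content. The histone list lies furthest from 0, the fitted median of every other list lies within 0.1, and the medians climb from the lowest to the highest GC quintile in each pair.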

How the data were processed

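The authors deposited 1 table of RPKM values for 32997 genes with gene positions and lengths, per the file headers. The build is GRCh38 (per the submitters' processing notes), while aligner and counting program were not given in these sources. After multiplication by length, 100% of values below 1000 reads were whole reads within 0.05 reads, which gave the depth. A gene was tested where 3 or more of 9 libraries reached 0.5 RPKM. Values were fitted as log2(RPKM + 0.1) with limma 3.58.1 (R 4.3.3), a trended variance, all 9 libraries, group and replicate number as terms, and Benjamini-Hochberg adjustment over 16533 genes. Same-numbered OTUB2 and SNX29P2 libraries deviated together from their group means (r from 0.153 to 0.27, other numbers -0.23 to -0.031), above the 0.1 set for pairing. This did not hold for every pair with the vector (lowest r -0.018).

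The rule for named genes took OTUB2, SNX29P2, SNX29, SNX29P1 and CA9, then genes with a symbol, a group mean of at least 1 RPKM and 1 sign in all 3 pairs, called or by smallest p, up to 15 per direction, and per list up to 3 called genes or 2 by smallest p. Genes named by this rule were not all printed. The members and lists were chosen with earlier results of these data known. GC content came from GENCODE release 29 transcripts, for 16308 genes (98.6%). It was corrected per library by a running median over 501 genes ordered by GC content. Exons were aligned with biopython 1.88, and python 3.11.15, pandas 2.3.3, numpy 2.4.6, scipy 1.17.1 and matplotlib 3.10.9 made tables and plots. Read intervals cover counting error only and take each read as independent. Per library 58.1 to 60.4% of counts under 1000 reads were even, and all counts of SNX29P2 and CA9 were. Where both reads of a fragment were counted, these intervals are too narrow. The fit was tested on simulated data. Alternatives covered the pseudocount, filter, scaling, variance fit, libraries used, replicate block, voom, GC and the construct entries, the last 2 added after seeing the data.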

Additional observations from a re-analysis of the deposited data

How the results depend on the processing

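The same 4 entries were called under pseudocounts of 1 and 0.01, no filter, both scalings, the robust variance fit, only the 6 compared libraries, a minimum log2 difference of 1, voom and GC correction. They were also called without the replicate block, in all 9 libraries (1 higher, 3 lower, 402 genes at an unadjusted p under 0.05). The same held in the 6 compared libraries (580, or 3.5%, against 2231, or 13.5%, with the block). The pairing thus changed no call, but it changed the unadjusted count. Unadjusted counts otherwise ran from 419 to 1751, the latter without vector replicate 1. With 1 RPKM required in 6 libraries 0 genes were called lower, since the SNX29 pseudogenes were then not tested. Without the 4 construct entries 0 were called higher and 0 lower. Leaving out libraries gave 1 to 3 genes called higher and 2 to 4 lower, with the extremes without SNX29P2 replicate 1 and without number 1 or 3. Without number 1 or 3 SNX29P1 lay at -6.555 and -5.831, past the threshold in neither, and without SNX29P2 replicate 1 RN7SL4P was called at 0.929.

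The sign of some uncalled values near 0 turned. With 1 library or number left out, CA9 ran from -0.601 to 0.102, CDH5 from -0.032 to 0.114, FAP from -0.208 to 0.065, FSTL3 from -0.018 to 0.058, PLTP from -0.012 to 0.095, MMP3 from -0.262 to 0.453 and DDX24 from -0.015 to 0.030. MMP3 lay at -0.262 without OTUB2 replicate 1. After GC correction FSTL3 lay at -0.047, PLTP at -0.006 and DDX24 at -0.008, and after quantile normalization CA9 lay at 0.032 and DDX24 at -0.017. The cause was not tested. Of 2859 recomputed values of 115 named genes, 2835 kept their direction and their side of the threshold. Depth limits genes under 1 RPKM, of which 63.8% had an interval within 2-fold.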
